A study of Mus musculus with 8 samples.

Results

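The odorant receptor genes Olfr90 to Olfr138 lie beside the major histocompatibility complex (MHC) on mouse chromosome 17, and their RNA was followed here in the nose of mice that lack 2 enhancers of another receptor family. The members are the genes whose numbered symbol falls in the range Olfr90 to Olfr138, without pseudogene symbols (ending in -ps). This rule gave 44 genes of the 54982 in the deposited table, beside 1068 other odorant receptor genes chosen in the same way from the remaining numbers. It uses names only, not measured values.

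Odorant receptors are G protein-coupled receptors of the sensory cilia, and a mature olfactory sensory neuron expresses a single allele of a single receptor gene. Choice of a receptor depends on enhancers that act on nearby receptor clusters in cis, and a population of neurons carries each receptor in the mucosa. Receptor RNA in bulk tissue therefore sums over the neurons that chose that receptor. The receptors next to the MHC class I genes are a linked group of which homologues are also found beside the human MHC. Each member below is an odorant receptor, and its subfamily is given where it has one.

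The study asked how olfactory expression of the trace amine-associated receptors (Taar genes) depends on their enhancers TE1 and TE2. Total RNA of the olfactory mucosa, the nasal tissue in which these neurons sit, was sequenced in 4 libraries from mice with both enhancers deleted and in 4 control libraries. Both groups were labelled male, of the mixed strain 129S6;C57BL/6J and at postnatal day 30, so the groups differ by label in the deletion only. The labels do not say whether the 4 samples of a group came from separate animals, so p-values measure the spread between samples. Where the deleted segments begin and end is not stated by the labels.

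Reads assigned to genes ranged from 36359734 to 44114750 per library in the deletion group and from 31655524 to 50748777 in the control group. Reads of the 14 olfactory Taar genes summed to 11 to 83 per deletion library, against 2941 to 3594 per control library, which fits the genotype labels. Deletion replicate 3 went against its label as male: Xist, the RNA of the inactive X chromosome, had 15300 scaled reads there and 4.86 to 86.9 in the other libraries, and the Y-linked Ddx3y had 5.69 there and at least 2716 in each other library. The summed levels, the share, the median and the receptors that moved most without deletion replicate 3 are therefore also given without it. Scaled reads are the deposited values: the reads of a gene over the size factor of its library.

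The 44 receptors were all on chromosome 17, from position 37083871 to 38336643 of GRCm38, a span of 1.253 Mb. They were split evenly between the strands, 22 on the plus and 22 on the minus strand. A gap of 124.1 kb divided them into a first block of 34 members (chr17:37083871-37926801) and a second block of 10 (chr17:38050857-38336643), with blocks defined by gaps above 100 kb. The coding sequence, 915 to 1158 bases, lay in 1 exon in every coding transcript of 42 of the 44, as is usual for odorant receptors. Coding sequences at least 85% identical to another member's joined 35 receptors into 9 subfamilies, and 9 receptors stood alone (Olfr94, Olfr95, Olfr96, Olfr109, Olfr123, Olfr125, Olfr131, Olfr132 and Olfr137).

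Sequence likeness can limit how well reads are assigned, and the pair closest in coding sequence is shown. Olfr110 and Olfr111 were 98.1% identical, with 18 of 951 coding bases differing, while the median identity over all pairs of members was 60.3%. The stretch shown was chosen as the 60-base coding window with the most differing bases, so it is where the coding sequences are easiest to tell apart. Olfr110 has 1751 and Olfr111 2643 exon bases, and those outside the coding sequence were not compared. It holds the 60 coding bases from base 817 of each, plus strand, from GENCODE annotation of GRCm38, with the 5 differing bases in capitals (chr17:37499469-37499528 for Olfr110 and chr17:37530795-37530854 for Olfr111).
Olfr110: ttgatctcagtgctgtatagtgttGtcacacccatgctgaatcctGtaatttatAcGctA
Olfr111: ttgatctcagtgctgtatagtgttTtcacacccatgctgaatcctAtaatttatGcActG
How reads that match several genes were handled is not stated, so values of such close copies are uncertain.

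Olfr126, Olfr127 and Olfr128 are shown because their levels moved together among deletion libraries, as described further on. Their stretch was also chosen as the 60-base coding window with the most differing positions. In the 60 coding bases from base 151, plus strand, capitals mark the 9 positions at which the 3 genes are not all alike (chr17:37850744-37850803, chr17:37903698-37903757 and chr17:37923718-37923777).
Olfr126: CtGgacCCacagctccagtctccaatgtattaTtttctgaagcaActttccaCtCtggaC
Olfr127: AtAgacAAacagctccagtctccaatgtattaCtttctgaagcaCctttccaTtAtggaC
Olfr128: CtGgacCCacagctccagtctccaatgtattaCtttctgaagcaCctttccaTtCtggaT

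RefSeq start windows of 300 bases on GRCm38, 250 before and 50 after the start, were available for 34 of the 44 members. In 22 of these the RefSeq start was the start of the coding sequence. In 20 it was the start of a GENCODE transcript, but in only 2 was it the start of the GENCODE gene. Such a window need not be the promoter, and most lay inside the annotated gene. The motif of TCCC, any 2 bases and GGGA, which reads the same on both strands and resembles the site of the neuronal early B-cell factors (Olf1/EBF), was in 4 of 34 member windows (11.8%), against 1 of 910 windows of other odorant receptors (0.11%) and 297 of 32851 windows of all genes (0.904%). Of the 4, Olfr98, Olfr99 and Olfr108 belong to 1 subfamily, so their matches are not independent. The windows of Olfr97 and Olfr107, of the same subfamily, held no match. The match of Olfr96, TCCCATGGGA, lay past its RefSeq start. It began 4 bases before the coding start and so took in the ATG start codon. The matches of the 3 relatives are shown with 10 bases on either side and the motif in capitals, at chr17:37263826-37263855 (minus strand), chr17:37280587-37280616 (minus strand) and chr17:37445362-37445391 (plus strand).
Olfr98: tctttctgttTCCCTAGGGAgccattttta
Olfr99: tctttatgtcTCCCTAGGGAgccattttta
Olfr108: tctttatgtcTCCCTAGGGAgacattttta
The match began 183, 188 and 151 bases before the coding start of Olfr98, Olfr99 and Olfr108, in that order. Their RefSeq starts lay 87, 3042 and 0 bases from the GENCODE gene start. Olfr99 was among the most abundant members and Olfr98 and Olfr108 were the least abundant, so receptors with near-identical stretches there differed widely in level. The homeodomain-type motifs TAATGA and TAATTA, on either strand, were in 26.5% and 8.82% of member windows, against 28.9% and 19% of windows of other odorant receptors and 9.78% and 5.29% of all windows. A match describes letters only and does not show binding.

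Levels per length placed the MHC-linked receptors in the middle of the receptor repertoire. Their median was 1.41 RPKM (reads per kilobase of exon, with each library scaled to 1000000 reads; mean of 8 libraries), against 1.30 RPKM over 1066 other odorant receptors with a known length, whose quartiles were 0.670 and 2.43 RPKM. Of the 44 members, 25 lay above the median of the other receptors and 8 above their upper quartile. The range ran from 0.0440 RPKM (Olfr108) to 5.65 RPKM (Olfr131).

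Olfr131, a single receptor of the second block (chr17:38081624-38088693, minus strand), had the highest level, with 6.10 ± 0.937 RPKM in deletion and 5.20 ± 0.817 RPKM in control libraries (SD, n = 4 each). Its scaled reads were 383, 432, 434 and 534 in the deletion libraries, against 387, 274, 442 and 394 in the control libraries. Only deletion replicate 4 was above every control library, and the groups overlapped. After it came Olfr110, with 4.23 ± 0.548 RPKM in deletion and 3.83 ± 0.772 RPKM in control libraries (SD, n = 4 each). Olfr132 had 3.91 ± 0.396 RPKM in deletion and 3.89 ± 0.666 RPKM in control libraries. The levels of Olfr110, Olfr117 and Olfr132 over all 8 libraries, 4.03, 4.02 and 3.90 RPKM, lay closer together than the SD of either group for Olfr110 or Olfr132, and below Olfr131 by more than that SD. Olfr96, Olfr99, Olfr121 and Olfr136 completed the 8 most abundant, at mean levels of 3.30, 3.29, 3.05 and 2.95 RPKM over all 8 libraries. The 8 held 31.4% of the reads of the 44 members.

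**Figure D1:**
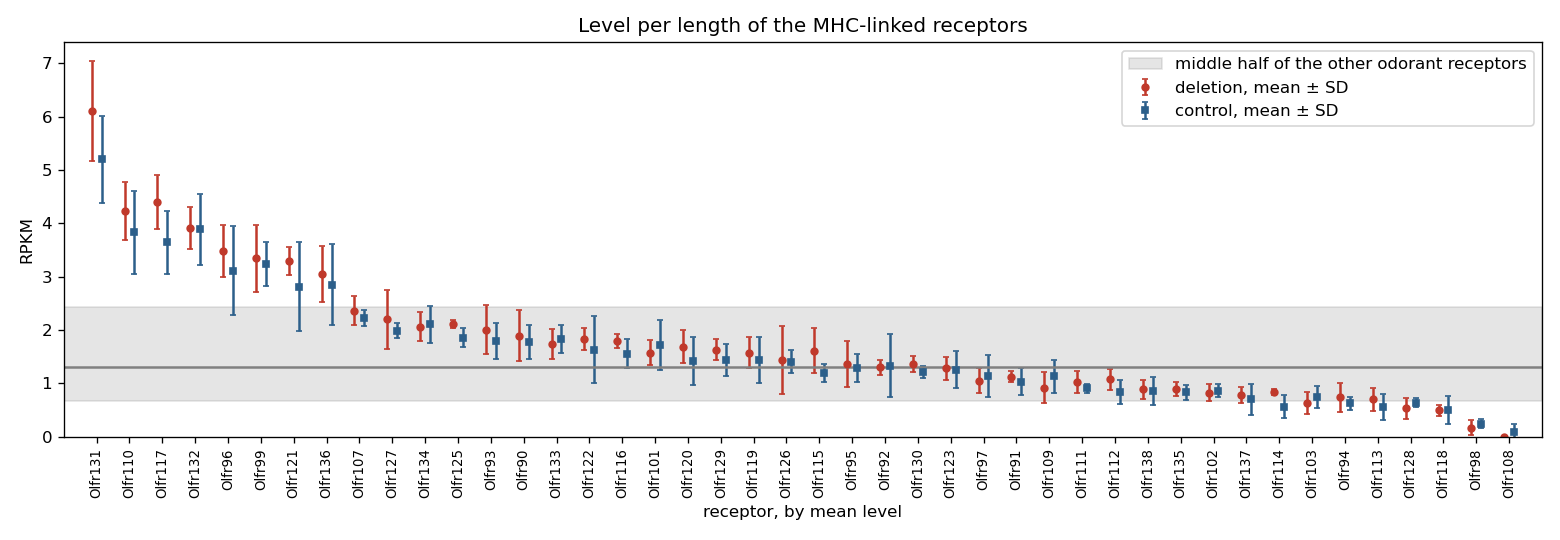
Mean RPKM of each of the 44 receptors in the deletion (circles) and control (squares) libraries, ordered by the mean over all libraries, with error bars of 1 SD (n = 4 each). The band spans the quartiles of other odorant receptors and its line is their median, 1.30 RPKM; 8 members lie above the band, led by Olfr131.

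Close relatives were not equally abundant. Olfr110 stood at 4.03 RPKM and its near-copy Olfr111 at 0.966 RPKM over all libraries. Within the subfamily of Olfr97, Olfr98, Olfr99, Olfr107 and Olfr108 levels per length ran from 0.0440 to 3.29 RPKM. The Olfr118 subfamily (with Olfr119, Olfr120, Olfr121, Olfr122 and Olfr129) ran from 0.494 to 3.05 RPKM, while the members of the Olfr90 subfamily (Olfr90 to Olfr93) were all between 1.08 and 1.90 RPKM.

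The least abundant members were Olfr98 and Olfr108, which did not pass the filter on low counts; 42 of the 44 did. Olfr98 (chr17:37262711-37263749, minus strand) had 6, 4, 2 and 17 reads in the deletion libraries, against 12, 7, 7 and 15 reads in the control libraries. These few reads overlapped between groups, and 354 exon bases of Olfr98 are shared with Gm20429, a gene on the opposite strand, whose reads could be mixed in if strand was not used. Olfr108 (chr17:37445480-37446517, plus strand) had 0 reads in all 4 deletion libraries, against 0, 1, 10 and 1 reads in control replicates 1 to 4. A count of 0 over the 4 deletion libraries allows a level of up to 0.0186 CPM (reads with the library scaled to 1000000; 3 counts of the total, counting error only), and 10 of the 12 control reads came from control replicate 3. Of 10 genes of the neighbouring MHC region with too few reads for the test, all 10 were also highest in control replicate 3; the part of that library in the Olfr108 reads was not tested. The 250 bases before the RefSeq start of Olfr108, which is also the GENCODE gene start, are shown with TCCCTAGGGA and TAATGA in capitals (chr17:37445230-37445479, plus strand). Beside them are the 250 bases before the RefSeq start of the abundant Olfr110 (chr17:37492218-37492467, plus strand), which held none of the 3 motifs. That start lay 6185 bases from the coding start in Olfr110 but 43 bases in Olfr108. The windows are thus not alike in position, and their difference in motifs does not compare like with like.
Olfr108: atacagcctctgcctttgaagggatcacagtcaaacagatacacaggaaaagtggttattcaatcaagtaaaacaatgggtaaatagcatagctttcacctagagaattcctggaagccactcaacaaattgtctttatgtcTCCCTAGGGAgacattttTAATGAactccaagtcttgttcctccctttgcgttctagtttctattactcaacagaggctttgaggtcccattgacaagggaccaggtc
Olfr110: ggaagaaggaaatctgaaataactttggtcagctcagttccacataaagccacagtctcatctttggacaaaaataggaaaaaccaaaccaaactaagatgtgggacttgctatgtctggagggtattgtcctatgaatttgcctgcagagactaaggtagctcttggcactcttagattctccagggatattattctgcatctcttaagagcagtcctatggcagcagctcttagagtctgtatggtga

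**Figure D2:**
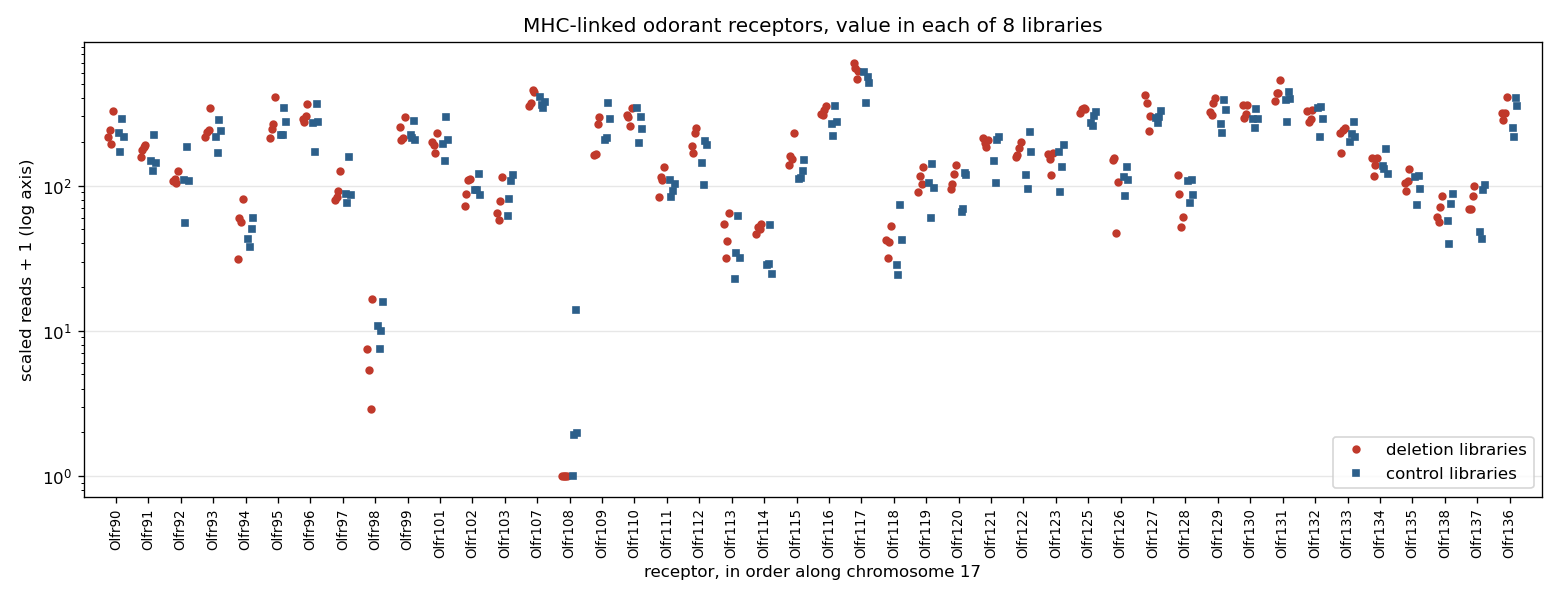
Scaled reads plus 1 (log axis) of each receptor in each library, in chromosome order, with deletion libraries as circles on the left and control libraries as squares on the right of each position. The groups overlap for each of the 42 tested members, and Olfr98 and Olfr108 lie far below the others.

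The comparison of deletion with control mice asks whether loss of enhancers of the Taar genes, which lie on another chromosome, was accompanied by a change in this linked group. None of the 42 tested members passed the test: limma called 0 at an adjusted p under 0.05, with adjusted p-values from 0.869 to 0.995, where it called 16 of 21974 genes overall (0.0728%) and 1 of 995 other odorant receptors (0.101%). By direction, 0.0137% of all tested genes were called higher and 0.0592% lower in deletion libraries. At an unadjusted p under 0.05 limma found 2 of 42 members (4.76%), against 770 of 21974 genes (3.5%) and 57 of 995 other odorant receptors (5.73%). Both were higher in deletion libraries, as were 1.58% of all tested genes and 4.02% of other odorant receptors at that threshold, while 1.92% of all tested genes were lower. edgeR's quasi-likelihood test and DESeq2 each called 0 members after adjustment and each found 1 at an unadjusted p under 0.05. The authors' deposited table gives an adjusted p for 43 members, the lowest 0.923.

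The groups overlapped for all 42 members. Groups that did not overlap were also rare elsewhere, at 484 of all tested genes (2.2%) and 23 of the other odorant receptors (2.31%). At such small shares, 0 of 42 does not set the members apart. In log2 fold change, deletion minus control on the log2(scaled reads + 1) scale, the members ranged from -0.31 (Olfr128) to 0.65 (Olfr114), with standard errors of 0.11 to 0.34. The value of Olfr128 moved to -0.13 when deletion replicate 3 was omitted and to -0.53 when deletion replicate 1 was omitted, whereas that of Olfr114 was 0.65 with deletion replicate 3 omitted. For 40 of the 42 the whole 95% interval lay within 1 log2 unit of 0, and over all 42 the intervals ran from -0.88 to 1.23. The test therefore leaves room for changes of some size in single receptors.

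Most of the estimates were above 0. The log2 fold change was positive for 34 of 42 members (81%), against 54.4% of all tested genes and 62.1% of other odorant receptors, and its median was 0.16 for members, 0.07 for other odorant receptors and 0.02 for all tested genes. The members are not independent of each other in this count, since they moved together from library to library. The median was 0.19 with deletion replicate 3 left out. Leaving out deletion replicate 4 gave 0.06, and leaving out control replicate 2 gave 0.04. The number of positive estimates moved too, to 23 of 42 without control replicate 2 and to 39 without control replicate 3.

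**Figure D3:**
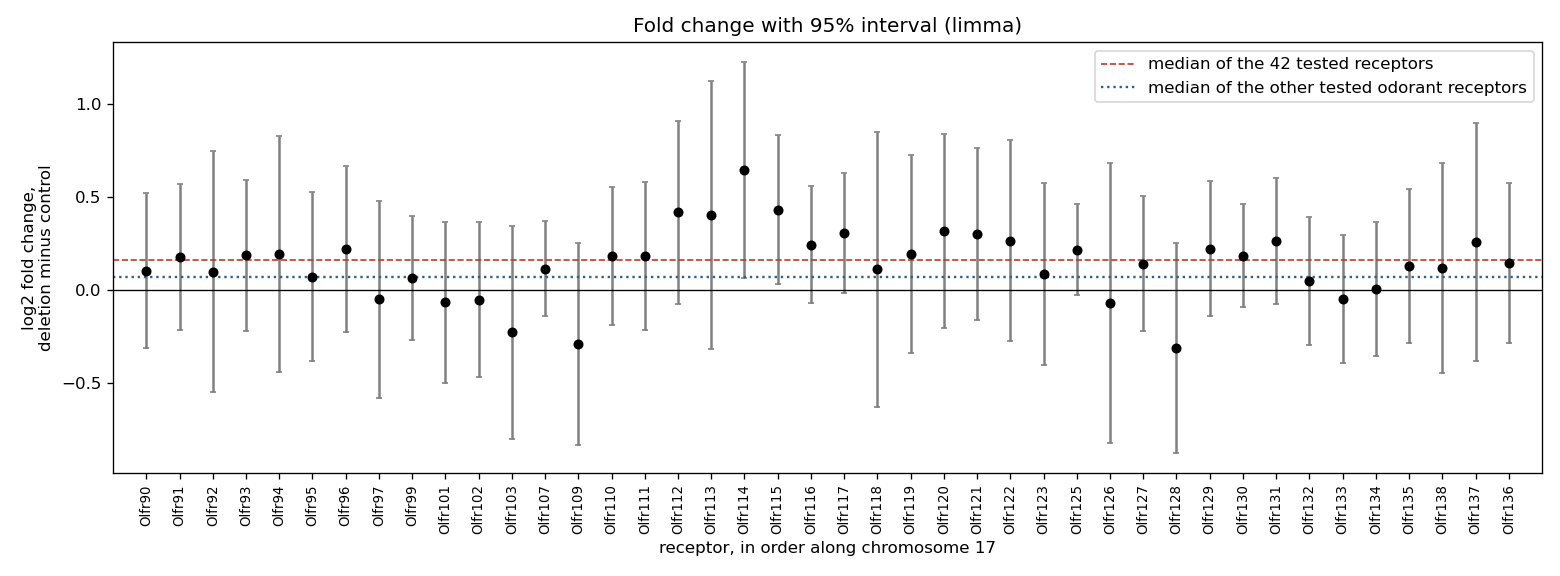
Log2 fold change (deletion minus control) of the 42 tested receptors in chromosome order, with 95% intervals from limma; the dashed line is their median, 0.16, and the dotted line that of other tested odorant receptors, 0.07. 34 estimates lie above 0, and 2 intervals, those of Olfr114 and Olfr115, do not include 0.

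Summed over the 44 members, the level was 204.8, 200.6, 196.1 and 249.1 CPM in the deletion libraries, against 185.2, 162.5, 234.4 and 204.2 CPM in the control libraries. Deletion replicate 4 and control replicate 3 were the highest and control replicate 2 was the lowest, and the groups overlapped. The means were 212.7 ± 24.5 CPM in deletion and 196.6 ± 30.4 CPM in control libraries (SD, n = 4 each), a difference of 8.17% that was smaller than the SD of either group and was 10.98% when deletion replicate 3 was omitted. Omitting deletion replicate 4 gave 2.00%, omitting control replicate 2 gave 2.27%, and omitting control replicate 3 gave 15.6%.

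As a share of all odorant receptor reads the members took 2.895%, 2.834%, 2.972% and 3.365% in the deletion libraries, against 2.588%, 2.604%, 3.030% and 3.123% in the control libraries. The group means were 3.02% ± 0.239 in deletion and 2.84% ± 0.280 in control libraries (SD, n = 4 each), and the ranges overlapped. The relative difference was 6.35% with all libraries and 6.88% when deletion replicate 3 was omitted. The other odorant receptors summed to 6826 ± 311 CPM in deletion and 6721 ± 640 CPM in control libraries. In bulk tissue, a change in the number of neurons choosing a receptor and a change in RNA per neuron cannot be told apart.

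**Figure D4:**
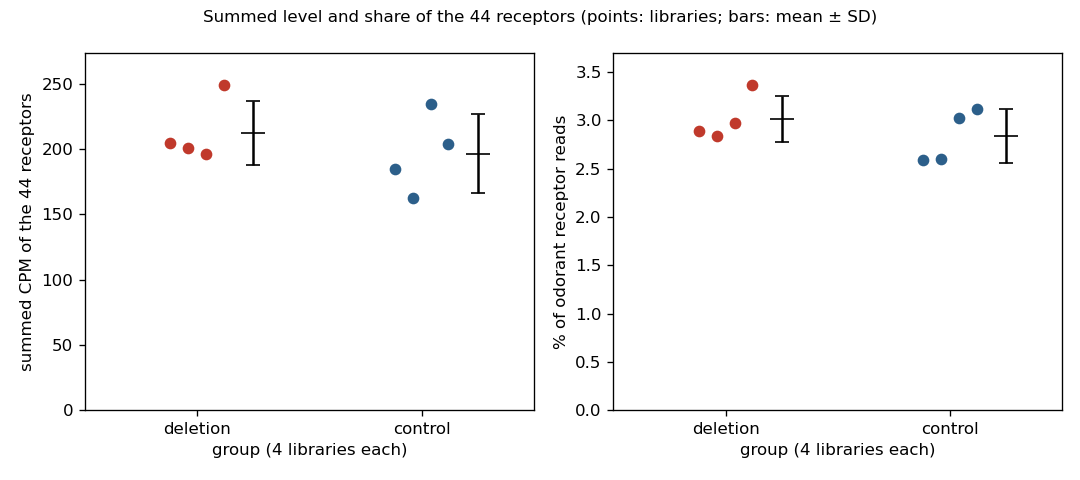
Summed CPM of the 44 receptors (left) and their share of odorant receptor reads in percent (right) in each library, deletion on the left of each panel and control on the right, with the mean and 1 SD beside the points (n = 4 each). The groups overlap in both panels, and control replicate 2 is the lowest point in summed CPM at 162.5.

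The 2 blocks and the 2 strands gave similar values. Block 1 summed to 154.1 ± 17.9 CPM in deletion and 142.2 ± 21.9 CPM in control libraries, and block 2 to 58.5 ± 7.15 CPM in deletion and 54.4 ± 8.52 CPM in control libraries (SD, n = 4 each). Minus-strand members summed to 109.6 ± 15.3 CPM in deletion and 99.2 ± 17.3 CPM in control libraries, and plus-strand members to 103.1 ± 9.53 CPM in deletion and 97.4 ± 13.3 CPM in control libraries. Each of these differences was smaller than the SD of either group, also when deletion replicate 3 was omitted.

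A single library often marked the whole group. Of the 42 tested members, 26 had their lowest value in control replicate 2, 15 their highest in deletion replicate 4 and 14 their highest in control replicate 3. The median deviation of the members from their own mean over libraries was 0.33 (log2) in deletion replicate 4, 0.29 in control replicate 3 and -0.44 in control replicate 2, and between -0.14 and 0.04 in the other 5 libraries.

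Markers of mature olfactory neurons moved in part with this. The 11 markers, which include the olfactory marker protein Omp and the transduction genes Gnal, Adcy3 and Cnga2, summed to 524371 to 548127 scaled reads in deletion libraries, against 429330 in control replicate 2 and 518957 to 547520 in the other control libraries. All 11 were tested and 0 were called by limma. Taken over the reads of these markers, the summed reads of the members were 3.68% higher in deletion than in control libraries, and the median log2 fold change of the members was 0.07 after scaling to the markers. Respiratory epithelium markers (4 of 4 positive, 0 called) summed to 325341 to 355561 scaled reads in deletion libraries, against 168580 in control replicate 2 and 251926 to 312873 in the other control libraries. Sustentacular markers (4 of 4 positive, 0 called) summed to 483748 to 597351 scaled reads in deletion and 400653 to 478342 in control libraries. The part of these differences in the receptor values was not tested.

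The receptors with the smallest p among those higher in deletion libraries were Olfr114, Olfr115, Olfr117 and Olfr125, of which Olfr114 and Olfr115 belong to 1 subfamily and are next to each other on the chromosome. Those of Olfr114 and Olfr115 were under 0.05 before adjustment. Olfr114 (chr17:37589233-37592743, minus strand) had 45.5, 50.6, 49.3 and 53.0 scaled reads in the deletion libraries, against 27.5, 27.7, 52.8 and 23.6 in the control libraries. Control replicate 3 stood with the deletion libraries and the other 3 control libraries lay below all of them. Its log2 fold change was 0.65 ± 0.27 (SE; limma adjusted p = 0.869).

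Olfr115 (chr17:37608940-37627109, minus strand) had 137.5, 158.6, 150.7 and 231.0 scaled reads in the deletion libraries, against 109, 112, 125 and 148 in the control libraries. Deletion replicates 2, 3 and 4 were above every control library, and deletion replicate 1 was not. Its log2 fold change was 0.43 ± 0.18 (SE; limma adjusted p = 0.869). The gene shares 304 exon bases with Olfr116 on the same strand, so reads there cannot be given to one of them by position; Olfr116 had 310, 305, 333 and 352 scaled reads in the deletion libraries, against 265, 220, 353 and 272 in the control libraries. Its highest value was in control replicate 3, and its log2 fold change was 0.25 ± 0.14 (SE; limma adjusted p = 0.869).

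Olfr117 (chr17:37657600-37663782, minus strand), the member with the most scaled reads, had 697, 640, 545 and 616 in the deletion libraries, against 606, 370, 560 and 506 in the control libraries. The low value of control replicate 2 set the lower end of its range, and the log2 fold change was 0.31 ± 0.15 (SE; limma adjusted p = 0.869). Olfr125 (chr17:37832949-37838490, plus strand), a receptor without close relatives in the group, had 315, 335, 343 and 338 scaled reads in the deletion libraries, against 267, 256, 303 and 323 in the control libraries. Its deletion libraries differed little among themselves, and its log2 fold change of 0.22 ± 0.11 had the smallest standard error of the 42 (SE; limma adjusted p = 0.869).

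On the negative side the smallest p-values belonged to Olfr128, Olfr109, Olfr103 and Olfr101, and none was under 0.05 before adjustment. Olfr109 (chr17:37458916-37471590, plus strand) had 161, 163, 265 and 298 scaled reads in the deletion libraries, against 206, 213, 370 and 287 in the control libraries. Deletion replicates 1 and 2 lay below every control library and the other two within the control range, and the log2 fold change was -0.29 ± 0.25 (SE; limma adjusted p = 0.869). Single libraries moved that value: it was -0.12 when control replicate 3 was omitted, -0.15 and -0.16 when deletion replicate 1 or deletion replicate 2 was omitted, and -0.45 when deletion replicate 4 was omitted. Olfr103 had 63.9, 57.3, 77.7 and 113 scaled reads in deletion libraries, against 60.8, 80.4, 107 and 117 in control libraries. Olfr101 had 199, 190, 167 and 228 scaled reads in deletion libraries, against 193, 146, 298 and 207 in control libraries. The subfamily of Olfr101, Olfr102 and Olfr103 was the one in which every tested member had a negative estimate (-0.06, -0.05 and -0.23), each with a 95% interval that includes 0. With 1 library omitted at a time, Olfr103 ran from -0.42 (deletion replicate 4) to -0.095 (control replicate 4). Olfr101 turned positive when deletion replicate 3 (0.010) or control replicate 3 (0.12) was omitted, and Olfr102 when deletion replicate 1 was (0.073).

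Olfr126, Olfr127 and Olfr128, relatives next to each other at the end of the first block, split the deletion libraries. Olfr126 had 148, 154, 46.4 and 105 scaled reads in the deletion libraries, against 113, 83.2, 133 and 109 in the control libraries. Olfr127 had 419, 372, 237 and 301 scaled reads in the deletion libraries, against 291, 267, 295 and 327 in the control libraries. Olfr128 had 118, 85.9, 51.2 and 59.4 scaled reads in the deletion libraries, against 107, 74.9, 108 and 85.5 in the control libraries. All 3 were lowest in deletion replicate 3, the library that went against its male label, and deletion replicates 1 and 2 held the highest values of Olfr126 and Olfr127. After removal of each receptor's mean and each library's median, deletion replicate 3 stood at -1.21, -0.43 and -0.73 (log2) for Olfr126, Olfr127 and Olfr128. Deletion replicate 4 was also below 0, at -0.34, -0.37 and -0.81. Deletion replicate 1 stood at 0.48, 0.42 and 0.49, and deletion replicate 2 at 0.58, 0.30 and 0.08. The median removed from deletion replicate 4 was 0.33, and its scaled reads of Olfr126 and Olfr127 lay within the range of the control libraries. The log2 fold change of Olfr126 was -0.07 ± 0.34 with all libraries and 0.31 without deletion replicate 3, and that of Olfr127 was 0.14 with all libraries and 0.29 without it (SE; limma adjusted p at least 0.450 in every setting tried). Whether the animal's sex or another property of that library has a part in this was not tested.

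**Figure D5:**
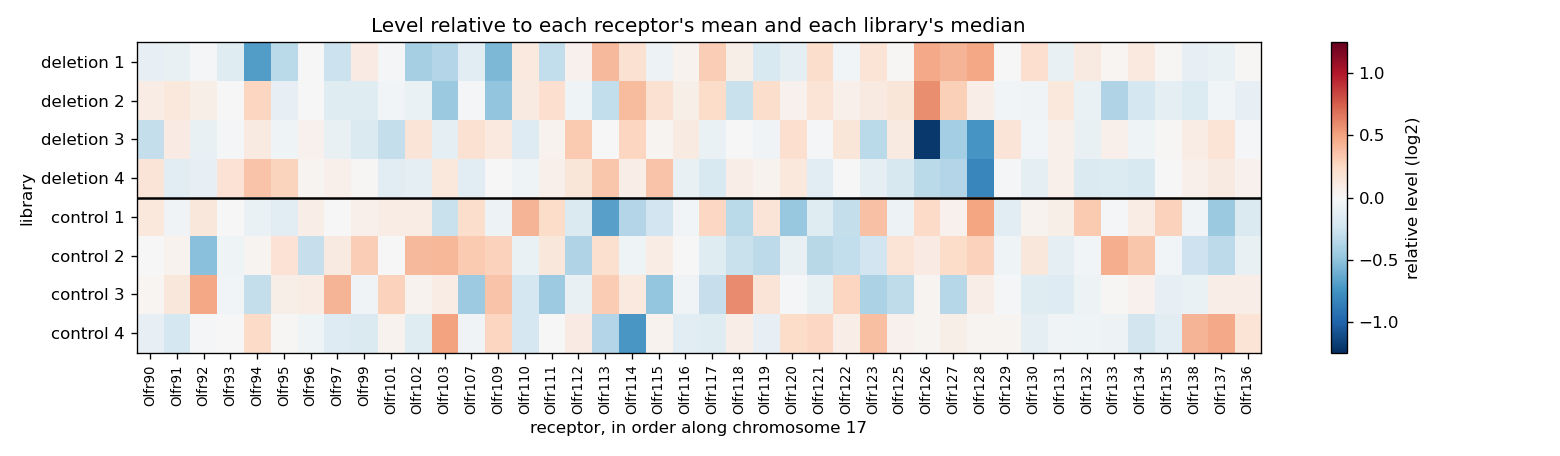
Level (log2 of scaled reads plus 1) of the 42 tested receptors in each library after each receptor's mean over libraries and each library's median over receptors were removed; red is above and blue below 0, with deletion libraries above the line and control libraries below it. Neighbours Olfr126 to Olfr128 are blue in deletion replicates 3 and 4 and red in deletion replicate 1.

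The other members with the widest spread were Olfr92, Olfr118, Olfr113, Olfr122 and Olfr94, of which the first 4 varied more between control libraries and Olfr94 between deletion libraries. Olfr92 had 106, 110, 103 and 126 scaled reads in deletion libraries, against 108, 54.5, 184 and 106 in control libraries. With 1 added to each value, its control libraries spanned 3.33-fold between lowest and highest, the deletion libraries 1.22-fold. Olfr118 had 41.2, 30.8, 39.8 and 52.0 scaled reads in deletion libraries, against 27.5, 23.1, 72.1 and 41.3 in control libraries, again with control replicate 3 highest and control replicate 2 lowest. Olfr113 had 53.1, 30.8, 40.8 and 63.9 scaled reads in deletion libraries, against 21.9, 33.3, 60.5 and 30.5 in control libraries. The related Olfr113 and Olfr114 were each high in control replicate 3. Olfr122 had 156, 161, 181 and 198 scaled reads in deletion libraries, against 117, 93.3, 233 and 168 in control libraries. Olfr94 had its lowest value, 30.3, in deletion replicate 1 and its highest, 80.4, in deletion replicate 4, against 37.0 to 59.0 in control libraries. Over the tested members the highest library was a median of 1.57 times the lowest within a group, again with 1 added to each value.

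By subfamily, the members that share sequence did not all share a direction. With all libraries and limma, the 6 tested members of the Olfr118 subfamily (median log2 fold change 0.25) and the 4 of the Olfr90 subfamily (0.14) had positive estimates. These signs did not hold in every setting: Olfr118 was -0.0054 and Olfr92 -0.037 with DESeq2, and Olfr92 was -0.010 with edgeR. With control replicate 2 omitted Olfr118 was -0.11, Olfr119 -0.029 and Olfr92 -0.21, and with deletion replicate 4 omitted Olfr90 was -0.043. The 8 members of the Olfr112 subfamily (Olfr112 to Olfr116 and Olfr126 to Olfr128) had the widest range, from -0.31 to 0.65, with 6 positive, and summed to 32.68 ± 3.797 CPM in deletion and 28.29 ± 3.612 CPM in control libraries (SD, n = 4 each). The pair Olfr117 and Olfr130 summed to 23.5 ± 2.37 CPM in deletion and 20.1 ± 2.50 CPM in control libraries. These 2 differences exceeded the SD of either group, but the ranges overlapped, at 27.2 to 35.5 CPM in deletion and 24.6 to 32.6 CPM in control libraries for the Olfr112 subfamily and 20.4 to 26.1 CPM in deletion and 16.6 to 22.0 CPM in control libraries for the pair. The overlap came from deletion replicate 3: with it omitted, the lowest deletion value was 33.06 CPM against a highest control value of 32.60 CPM for the subfamily, and 23.2 CPM against 22.0 CPM for the pair. These sums were singled out by their values and were not tested. The share of all genes without overlap was not computed with deletion replicate 3 omitted, so the separation there has no background to be read against. Olfr133, Olfr134 and Olfr135 stood near 0, from -0.05 to 0.13. No member of any of these subfamilies was called.

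Genes of the same MHC region that are not receptors gave a local comparison. Of a list of 25, among them class I genes of the H2-M group and the TRIM genes, 15 were tested, 0 were called by limma and 7 had positive estimates (46.7%), with a median log2 fold change of -0.02. The groups did not overlap for 1 of the 15 (6.67%), against 2.2% of all tested genes. It was Ubd, which lies between Olfr93 and Olfr94. Ubd had 31.9 to 42.7 scaled reads in deletion and 44.4 to 55.1 in control libraries (log2 fold change -0.42, limma adjusted p = 0.869). Gabbr1, a GABA-B receptor subunit gene of the region, had a log2 fold change of 0.02 ± 0.07 (SE). The highest estimate was 0.19, of H2-M3. Trim10, H2-M10.2 and H2-M10.3 were at -0.85, -0.54 and -0.50 (limma adjusted p = 0.869 each). H2-M10.6, a class I gene used in vomeronasal neurons, averaged 22.8 ± 10.7 scaled reads in deletion and 40.8 ± 11.4 in control libraries (SD, n = 4 each; log2 fold change -0.94, limma adjusted p = 0.869). Deletion replicate 3 was lowest at 7.58 scaled reads, and with it omitted the log2 fold change was -0.50 (limma adjusted p = 0.834). A list of markers of vomeronasal neurons, a tissue that a mucosa dissection can include, summed to 3569 to 4317 scaled reads in deletion and 3521 to 5122 in control libraries. Nearly all of these reads came from Gnao1, and Trpc2 was at 0 in every library. The sum therefore does not measure how much vomeronasal tissue was included. The part of vomeronasal neurons in the H2-M10.6 value was not tested.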

How the data were processed

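Total RNA libraries of 8 samples, 4 per group, made with a ribodepleting kit that keeps strand per the labels' protocols, were read from 1 deposited table. STAR 2.6.0, DESeq2 and GRCm38.p6 come from the submitters' processing notes. The counter, its strand setting, its treatment of multiply mapping reads and the annotation used are not stated. What the authors deposited per sample is a signal: reads of a gene over a size factor. Dividing each column by its smallest value gave whole reads for 100% of non-zero values (tolerance 0.001). Per the file headers the table also has the authors' log2 fold change, its error, a statistic (a score), and a raw and an adjusted p-value; only adjusted p-values are printed from it, under the authors' name. 0 columns of per-sample values were unused.

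The deletion columns use an abbreviation that the titles do not; they were assigned by replicate number, all others being named for controls. Coordinates and lengths come from GENCODE release 21 for mouse (M21), which matched 54161 of 54982 genes by identifier, the 44 members included. Because the values are scaled reads and not raw counts, the test was limma 3.58.1 (R 4.3.3) on log2(scaled reads + 1) with trend and robust moderation, as the design foresaw for that unit. filterByExpr of edgeR 4.0.16, by group at a minimum count of 10, kept 21974 genes, over which p-values were adjusted by Benjamini-Hochberg (threshold 0.05). edgeR's quasi-likelihood test on recovered reads called 16 genes and DESeq2 1.42.0 called 23; other alternatives are in the closing section. The limma step was tested on simulated data over 21974 genes. CPM and RPKM were computed from recovered reads and library totals. With no protein table, subfamilies use coding-base identity of at least 85% (single linkage, GENCODE transcripts) in place of protein identity.

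Receptors named are the 8 with the highest RPKM, the 4 with the smallest p in each direction, the 6 with the widest spread within a group and those with the fewest reads; Olfr116, Olfr127 and other relatives were added after their values were seen. Members and lists were chosen with earlier results of these data known. 1 receptor of the range is not reported here.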

Additional observations from a re-analysis of the deposited data

Results flagged for a closer look

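Within groups of 4 libraries, a value was marked when its gap to the nearest other library took up more of the group's range than Dixon's critical value at 95% allows. Of 92 groups checked 4 were marked, and chance marks about 1 in 20. Control replicate 3 held 155.8 scaled reads of Olfr97, where the other controls had 74.9 to 85.9. It held 12.88 scaled reads of Olfr108, where the others had 0 to 0.98, and 52.81 of Olfr114, where the others had 23.6 to 27.7. The summed level of the 44 members was 249.1 CPM in deletion replicate 4, and 196.1 to 204.8 CPM in the rest of the deletion group. Control replicate 3, with 3 of the 4 values, has the fewest reads of the 8 libraries, 31655524. Before scaling it held 121, 10 and 41 reads of Olfr97, Olfr108 and Olfr114, against at most 106, 1 and 34 in the other control libraries. The part of its depth in these values was not tested.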

How the results depend on the processing

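No member was called in any alternative (edgeR, DESeq2, other scaling, filters, pseudocounts of 0.5 and 5, each library omitted), and the lowest adjusted p of a named receptor was 0.450. Over all tested genes limma called 16, but 10 with a mean of at least 50 reads, and 13 to 28 with each library omitted in turn, the highest count without deletion replicate 4. The median log2 fold change of the members stayed positive, 0.036 to 0.24 with a library omitted, and was 0.069 scaled to mature neuron markers (added after seeing the data). With a library omitted the summed CPM difference ran from 2.00% to 15.6%, and the relative share difference from 2.26% to 10.06%. Replicate numbers were not taken to pair the samples. Same-numbered deviations correlated at 0.33, 0.088, -0.17 and 0.053, and 2 of 4 numbers matched best, which cannot exclude pairing in part. With the replicate block limma called 14 genes and 0 members, at a median of 0.16. Of 375 log2 fold changes for 21 named receptors 19 changed sign, none of a called receptor, and the cause was not tested. Olfr92 was -0.0365 with DESeq2, -0.0104 with edgeR, and -0.21 (without control replicate 2) to 0.37 with a library omitted. Olfr126 was 0.0265 with DESeq2, 0.0503 with edgeR, and -0.26 to 0.31 (without deletion replicate 3). Olfr118 was -0.00545 with DESeq2, and -0.11 (without control replicate 2) to 0.42. Olfr132 was -0.0444 scaled to mature neuron markers, and -0.0999 (without control replicate 2) to 0.13. Olfr99 was -0.0285 scaled to mature neuron markers, and -0.0382 (without deletion replicate 4) to 0.16. With a library omitted, Olfr136 ran from -0.00394 (without control replicate 2) to 0.30, Olfr101 from -0.22 to 0.12 (without control replicate 3), and Olfr94 from -0.000769 (without deletion replicate 4) to 0.46.

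With 4 samples per group and single libraries that shift the whole set of receptors, intervals of single receptors reach from -0.88 to 1.23 on the log2 scale. Values of Olfr98 and Olfr108 rest on few reads. The assignment of reads among near-identical receptors was not tested.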
